A study of Homo sapiens with 12 samples.

Results

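The genes examined here encode the muscle actins, the tropomyosins that lie along the actin filament, and the myosin light chains of striated muscle. They are 10 genes, namely 3 actins (ACTA1, ACTA2 and ACTC1), 3 tropomyosins (TPM1, TPM2 and TPM3) and 4 light chains (MYL1, MYL2, MYL3 and MYL4). The members were the probes whose annotated gene symbol was 1 of these 10, which gave 29 of the 41000 gene probes on the array and 10 of its 30238 gene names. TPM3 had 11 probes, TPM1 had 6, ACTC1, TPM2, MYL3 and MYL4 had 2 each, and the other genes had 1.

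In the sarcomere, the repeating unit of striated muscle, thin filaments of actin slide past thick filaments of myosin. Tropomyosin lies along the thin filament and, with troponin, blocks or exposes the myosin binding sites as calcium changes. Each myosin head carries an essential and a regulatory light chain, and myoblasts switch these genes on as they differentiate into muscle fibers. ACTA1 is the adult skeletal muscle actin, ACTC1 is the cardiac actin that embryonic skeletal muscle also uses, and MYL4 is the embryonic and atrial light chain.

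Expression was measured in Rh30, a cell line from human alveolar rhabdomyosarcoma, a tumor with skeletal muscle features that carries the PAX3-FKHR fusion (FKHR is now named FOXO1). The parental cells (WT) were compared with 1 stable clone that carries a non-targeting shRNA (CON) and 1 stable clone that carries an shRNA against PAX3-FKHR (KD1). Both clones were kept in puromycin at 1 μg/ml, whereas WT was not, so that selection, cloning and puromycin cannot be told apart in comparisons with WT, and the knockdown cannot be told apart from differences between clones. Two-color Agilent arrays compared KD1 vs CON, KD1 vs WT and WT vs CON in 2 biological replicates, each as a dye-swap pair, which makes 12 arrays from 6 RNA extracts. Cells were collected 24 h after plating and 500 ng of RNA was labeled.

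A log2 ratio below gives the first culture over the second, so that KD1 vs CON below 0 means a lower signal in KD1, and a replicate value is the mean of its dye-swap pair. To be tested, a probe had to be brighter than 99% of the 153 negative controls in either channel of each array in the comparison, and it was called at a limma adjusted p under 0.05 over all probes tested. The share of spots well above background was 71.1% to 73.6% for Cy3 and 64.4% to 67.8% for Cy5. The ratios of the 2 dye orientations correlated across probes with 0.840 to 0.888 in 5 of the 6 pairs and with 0.448 in replicate 2 of KD1 vs WT. The brightest probe of PAX3 averaged −0.42 on the log2 scale against CON and −0.39 against WT in KD1, and the brightest FOXO1 probe had −0.42 and −0.60, none of them called (limma adjusted p between 0.273 and 0.432). In the same order, the PAX3 probes A_23_P209499 and A_24_P362595 had −0.09 and 0.06, and −0.28 and −0.25. The FOXO1 probe A_24_P22079 had −0.39 and −0.30. None of these was called, and which probes read the fusion transcript was not tested. Of the 7 skeletal muscle lineage markers, 6 were well above background on every array in all 3 cultures, and MYF6, the factor of late differentiation, was at or near background. Of the smooth muscle list 4 of 5 markers were detected everywhere, while MYH11, the smooth muscle myosin, reached that level on no array. Of the cardiac and fibroblast lists 3 of 5 each were detected everywhere, and LUM, a fibroblast proteoglycan, was not detected in any culture.

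Against CON, 0 of the 24 member probes tested in KD1 was called, beside 1.79% of all probes tested, and 6 of the 24 had an unadjusted p under 0.05, as 17.2% of all probes had. A probe that was not called is not shown to be unchanged. In KD1 vs WT 1 of 24 was called, a higher signal of MYL1, beside 1.05% of all probes and 0.285% called as higher. In WT vs CON 3 of 26 were called, all lower in WT, beside 1.37% of all probes and 0.594% called as lower. These were the MYL1 probe and both MYL4 probes, so that the calls came from 2 light chain genes, and no actin or tropomyosin probe was called in any comparison. Each gene was then taken at its brightest probe where that was tested. The median log2 ratio of these genes was −0.49 for KD1 vs CON, 0.55 for KD1 vs WT and −0.78 for WT vs CON. The median for KD1 vs WT is the value of ACTA2, near background, and that for WT vs CON is the value of the brightest TPM1 probe. Over all member probes tested the medians were −0.23, 0.17 and 0.03, and over all probes tested −0.01, 0.01 and −0.03. On all 4 arrays of KD1 vs CON, 12 of 24 member probes were below 0 (26.3% of all probes tested) and 7 were above 0 (24.9% of all probes). For WT vs CON 10 of 26 were below 0 (23.3% of all probes) and 3 above (20.1%), and for KD1 vs WT 6 of 24 were above (16.2%) and 3 below (16.0%). Probes of 1 gene can read the same transcripts and are not independent.

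**Figure D1:**
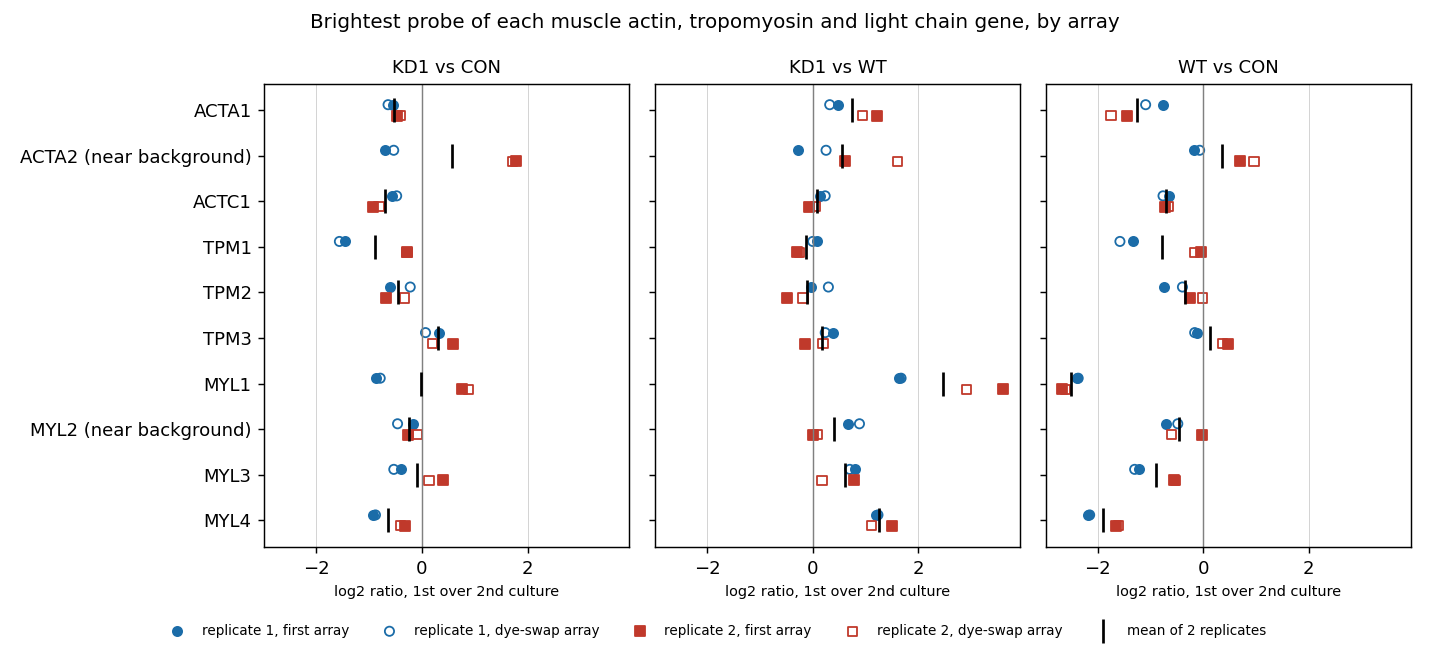
The log2 ratio of the brightest probe of each of the 10 genes (rows) is plotted for every array of the 3 comparisons (panels); blue circles are replicate 1, red squares replicate 2, open symbols the dye-swap array, and black ticks the mean of the 2 replicates. MYL1 and MYL4 lie below 0 on all 4 arrays of WT vs CON and above 0 on all 4 arrays of KD1 vs WT, while the 2 replicates of MYL1 lie on opposite sides of 0 in KD1 vs CON.

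Calls were made for light chains alone among the 3 classes. MYL1 encodes the essential light chain of fast skeletal muscle, MYL3 that of slow and ventricular muscle, and MYL4 that of embryonic and atrial muscle, whereas MYL2 is the regulatory light chain of slow and ventricular muscle. Because these genes are related, the bases that each probe reads are given first. The MYL1 probe and the brighter MYL3 probe come from corresponding stretches of coding sequence, with 36 of 50 aligned bases equal (72%), written in capitals. The MYL4 sequence is the part of its brightest probe up to the stop codon, in capitals.
MYL1, A_24_P191326: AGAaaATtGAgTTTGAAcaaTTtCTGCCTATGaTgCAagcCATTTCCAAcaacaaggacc
MYL3, A_23_P155638: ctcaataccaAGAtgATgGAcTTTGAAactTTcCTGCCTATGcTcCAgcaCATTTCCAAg
MYL4, A_24_P188218: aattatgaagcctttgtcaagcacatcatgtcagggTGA

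On the genome build of the files (hg18) the MYL1 probe lies at chr2:210867316-210867375 and the MYL3 probe at chr3:46876081-46876140, both on the reverse strand. The MYL4 probe spans chr17:42654813-42655879 on the forward strand, 1067 bases for a probe of 60, so that it crosses an intron. The second MYL4 probe, A_24_P151032, lies at chr17:42641757-42641816, upstream of the first.

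MYL1 was lower in WT than in both clones. Its log2 ratios in WT vs CON were −2.40 and −2.37 on the arrays of replicate 1 and −2.67 and −2.61 on those of replicate 2, a mean of −2.51 ± 0.18 (SD, n = 2) or 5.71-fold lower in WT (limma adjusted p = 0.0373). The KD1 vs WT arrays gave 1.64 and 1.68 in replicate 1 and 3.61 and 2.92 in replicate 2. All 4 ratios were above 0, and the values of replicate 2, the pair with the low dye-swap correlation, were the higher ones. The mean was 2.46 ± 1.14 (SD, n = 2), 5.51-fold higher in KD1 (limma adjusted p = 0.0469). Between the clones the replicates disagreed in sign, with −0.88 and −0.79 in replicate 1 of KD1 vs CON and 0.75 and 0.88 in replicate 2. The mean of −0.01 had a 95% confidence interval from −0.94 to 0.92 (limma adjusted p = 0.996). A change of up to nearly 1 on the log2 scale in either direction was thus not excluded. The MYL1 call in WT vs CON was lost with normexp background correction and loess (limma adjusted p = 0.141), and that in KD1 vs WT likewise (adjusted p = 0.154). With the replicate block the adjusted p was 0.0920 and 0.107. Both calls were also lost with median centring, with separate channels without the replicate block, with 3 residual degrees of freedom and without the signal filter, while the mean ratios stayed between −2.56 and −2.35 and between 2.29 and 2.48.

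MYL4 was lower in WT than in CON with both probes. The brighter probe had −2.19 and −2.15 in replicate 1 of WT vs CON and −1.65 and −1.61 in replicate 2, a mean of −1.90 ± 0.38 (SD, n = 2) or 3.74-fold lower in WT (limma adjusted p = 0.0139). The second probe had −1.63 and −1.59 in replicate 1 and −1.22 on both arrays of replicate 2, with a mean of −1.41 ± 0.28 (SD, n = 2) (limma adjusted p = 0.0308). No array of the comparison gave a ratio near 0 for either probe. With KD1 vs WT the brighter probe had 1.19, 1.24, 1.51 and 1.12, a mean of 1.27 ± 0.07 (SD, n = 2) that just missed the threshold (limma adjusted p = 0.0559). In KD1 vs CON it had −0.93, −0.88, −0.33 and −0.40, with a mean of −0.64 and a 95% confidence interval from −1.15 to −0.12 (limma adjusted p = 0.203). The difference of KD1 from WT was 1.31 without replicate 1 and 1.22 without replicate 2, where it rests on 1 value. The WT vs CON calls of both probes were lost with normexp and loess (limma adjusted p = 0.110 for each) and with separate channels without the replicate block (0.150 and 0.162). With the replicate block the brighter probe was called (limma adjusted p = 0.0434) and the second was not (0.0604), and the second was also lost without the signal filter (0.0652) and without replicate 1 (0.121).

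MYL3 had a mean log2 ratio of −0.90 in WT vs CON, with replicate values of −1.26 and −0.54, and 0.61 in KD1 vs WT, with 0.75 and 0.48. Both directions were seen on all 4 arrays but neither was called (limma adjusted p = 0.143 and 0.273). The other MYL3 probe never rose well above background. MYL2 cleared the background on 3 of 8 WT arrays, 5 of 8 KD1 arrays and 6 of 8 CON arrays, with background-subtracted signals between 3.80 and 14.1, and was not tested.

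No actin probe passed the test. The ACTA1 probe had −0.76 and −1.09 in replicate 1 and −1.45 and −1.75 in replicate 2 of WT vs CON, a mean of −1.26 ± 0.48 (SD, n = 2) or 2.40-fold lower in WT (limma adjusted p = 0.0618). Against WT, KD1 had 0.49, 0.32, 1.22 and 0.94 (limma adjusted p = 0.193), and against CON −0.56, −0.64, −0.48 and −0.41 (limma adjusted p = 0.316). The WT vs CON difference was called only without replicate 1 (limma adjusted p = 0.0454), where it rests on 1 value.

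ACTC1 was read by 2 probes, the brighter at chr15:32869778-32869837 (hg18). The brighter probe, with background-subtracted signals between 42510 and 133149, had −0.56, −0.48, −0.92 and −0.81 on the KD1 vs CON arrays, averaging −0.69 ± 0.24 (SD, n = 2). On the WT vs CON arrays it had −0.64, −0.76, −0.73 and −0.67, and the 2 replicate values were both −0.70. The second ACTC1 probe gave means of −0.56 and −0.69 in the same comparisons. ACTC1 was therefore lower than in CON on all arrays of both comparisons with either probe, by 1.48 to 1.63-fold. None of these passed the threshold (limma adjusted p between 0.139 and 0.200), and the 95% confidence interval of the brighter probe ran from −1.15 to −0.24 in KD1 vs CON. Between KD1 and WT its mean was 0.09, with an interval from −0.38 to 0.56.

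ACTA2, the actin of vascular smooth muscle and of activated fibroblasts, was close to background, with signals between 7.57 and 73.1. In KD1 vs CON it had −0.70 and −0.54 in replicate 1 and 1.79 and 1.71 in replicate 2, so that the replicates had opposite signs. It did not pass the signal filter in that comparison and was not called in the others (limma adjusted p = 0.600 and 0.770).

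No tropomyosin probe was called, and the probes of TPM1 gave unlike values. TPM1 encodes alpha-tropomyosin and is spliced into muscle and nonmuscle forms that end in different last exons. Its brightest probe, A_23_P363344, lies at chr15:61145287-61145531, and 3 others lie further downstream, between 61150414 and 61151145 on chromosome 15 (hg18). The WT vs CON arrays gave −1.33, −1.58, −0.05 and −0.16 for the brightest probe. The downstream probe A_23_P391586 had 0.31 and 0.31 in replicate 1 and 1.17 and 1.09 in replicate 2 of the same arrays. The upstream of these probes was thus below 0 on every array and this downstream one above 0, with differences between the 2 probes of 1.76 and 1.24 on the log2 scale in the 2 replicates.

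In KD1 vs WT the downstream probe A_23_P391586 had −0.62, −0.67, −1.70 and −1.51, while the brightest probe had 0.08, 0.00, −0.30 and −0.25. The downstream minus upstream difference was −0.69 and −1.33 there, and 1.20 and −0.15 in KD1 vs CON, where the replicates differed in sign. The probe A_24_P44462 spans chr15:61140494-61141494 and, like the brightest probe, crosses an intron. It had −0.42 and −1.82 as replicate values in KD1 vs WT, and −0.28, −0.38, 1.01 and 0.98 on the WT vs CON arrays. The most downstream probe, A_32_P89709, was near background and had −0.62, −0.06, 1.43 and 2.50 there, so that the downstream probes did not share a sign in replicate 1. No TPM1 probe was called (lowest limma adjusted p = 0.113, in KD1 vs WT). The difference between probes of a gene was not tested. Without replicate 1, the KD1 vs WT values were −1.53, −1.61 and −1.82 for A_23_P206018, A_23_P391586 and A_24_P44462. Each rests on 1 value from the pair with the low dye-swap correlation. In WT vs CON, A_32_P89709 had 1.97 without replicate 1.

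**Figure D2:**
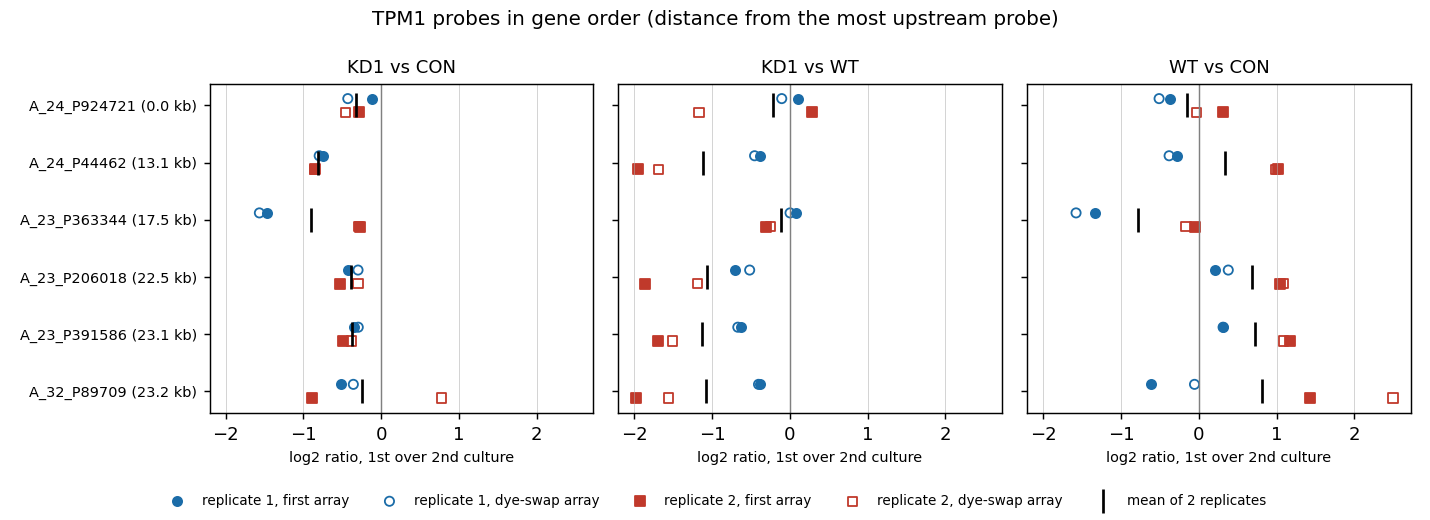
The log2 ratio of each of the 6 TPM1 probes (rows, from the most upstream at 0 kb to the most downstream at 23.2 kb) is plotted for every array of the 3 comparisons, with symbols as in the plot of the brightest probes. In WT vs CON the probe at 17.5 kb lies below 0 on all 4 arrays and those at 22.5 and 23.1 kb lie above 0, while the probe at 23.2 kb lies below 0 in replicate 1 and above 0 in replicate 2.

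TPM2 encodes beta-tropomyosin, and its brightest probe had −0.60, −0.22, −0.69 and −0.33 in KD1 vs CON with a mean of −0.46 (limma adjusted p = 0.319). The second TPM2 probe had a mean of −0.40 there. Both were lower in KD1 than in CON on all 4 arrays without passing the test, and in the comparisons with WT their adjusted p was between 0.320 and 0.860. TPM3 encodes the tropomyosin of slow muscle and, from another promoter, nonmuscle forms. Means lay between −0.15 and 0.40 for the 10 probes tested with KD1 vs CON, between −0.10 and 0.46 for the 9 tested with KD1 vs WT and between −0.42 and 0.51 for the 10 tested with WT vs CON. None was called (lowest limma adjusted p = 0.342), and 1 further TPM3 probe never rose well above background.

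By selection criteria built after those in the methods, which ask for a mean change of at least 2-fold in the same direction in both KD1 comparisons with that direction on all 8 arrays and a signal above the negative controls, 0 of the 10 genes were selected, beside 239 of 30238 gene names (0.79%) with each gene at its brightest probe. Signal limits on at least 1 array only, or any probe of a gene, also gave 0, beside 417 and 257 of the 30238 gene names.

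The relatives and regulators of these genes were taken from a list of 36 genes, of which MYLK4 had no probe and 35 were measured. None of the brightest probes was called, among 28 tested for KD1 vs CON, 28 for KD1 vs WT and 30 for WT vs CON, and 2, 4 and 9 of them had an unadjusted p under 0.05, which 17.2%, 17.2% and 16.5% of all probes had. MYLPF, the regulatory light chain of fast skeletal muscle, had −2.54, −2.41, −2.03 and −2.01 in WT vs CON, a mean of −2.25 ± 0.32 (SD, n = 2) (limma adjusted p = 0.0853). Against WT, KD1 had 1.77, 1.79, 3.79 and 3.50 (limma adjusted p = 0.0623), and against CON −0.80, −0.61, 1.51 and 1.73. MYLPF had the arrangement of MYL1, lower in WT on every array and with replicates of opposite sign between the clones.

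ACTG1, a cytoplasmic actin, had replicate values of 0.86 and 1.13 in WT vs CON (limma adjusted p = 0.0943), ACTB, the other cytoplasmic actin, had 0.36 and 1.29 (adjusted p = 0.195), and ACTG2, the enteric smooth muscle actin, had 1.04 and 2.00 (adjusted p = 0.150). All were above 0 on all 4 arrays, and none was called. TPM4 had −0.74 and 0.16, without a shared sign. MYLK, the light chain kinase of smooth muscle, had −0.29 and −0.10, and MYL9, the smooth muscle regulatory light chain, never rose well above background. SRF, the factor that binds CArG boxes in actin promoters, averaged 0.35 (KD1 vs CON), 0.25 (KD1 vs WT) and 0.10 (WT vs CON) (limma adjusted p between 0.471 and 0.868).

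LMOD3, a nucleator of skeletal muscle thin filaments, was chosen after its values were seen. Its brightest probe had −2.23, −2.52, −3.48 and −3.29 in WT vs CON (limma adjusted p = 0.0504), below 0 on all 4 arrays without a call. The dimmer LMOD3 probe, A_24_P76821, had −1.97, −1.75, −2.95 and −3.84 there, a mean of −2.63, and was called (limma adjusted p = 0.0391). Its signal in WT was near background, clearing it on 2 of 8 arrays.

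Of the skeletal muscle markers tested, 1 of 6 was called in WT vs CON, beside 1.37% of all probes, and 3 of the 6 had means below 0. MYOG, the myogenin factor of differentiating myoblasts, had −2.12, −2.13, −1.62 and −1.37 in WT vs CON, a mean of −1.81 ± 0.45 (SD, n = 2) (limma adjusted p = 0.0176) and was the marker called. In KD1 vs CON it had −1.33, −1.32, −1.01 and −0.94 (limma adjusted p = 0.0529). MYOD1, the determination factor, had means between −0.04 and 0.07 in the 3 comparisons, and DES, the muscle intermediate filament protein, had 0.50, 0.74 and −0.25, none called. MYF5, a determination factor of early myoblasts, had 1.63, 2.05, 1.17 and 1.49 in WT vs CON (limma adjusted p = 0.0955), above 0 on every array, whereas MYOG was below 0. Of the 4 cardiac markers tested in WT vs CON, 3 had means below 0 and 1 was called, beside the same 1.37% of all probes. The marker called was MYH6, whose signal was near background in WT. NPPB, a natriuretic peptide, had replicate values of 0.24 and 3.41 (limma adjusted p = 0.276). In a culture, fewer differentiating cells and less RNA per cell cannot be told apart, and the part of either in the light chain values was not tested.

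**Figure D3:**
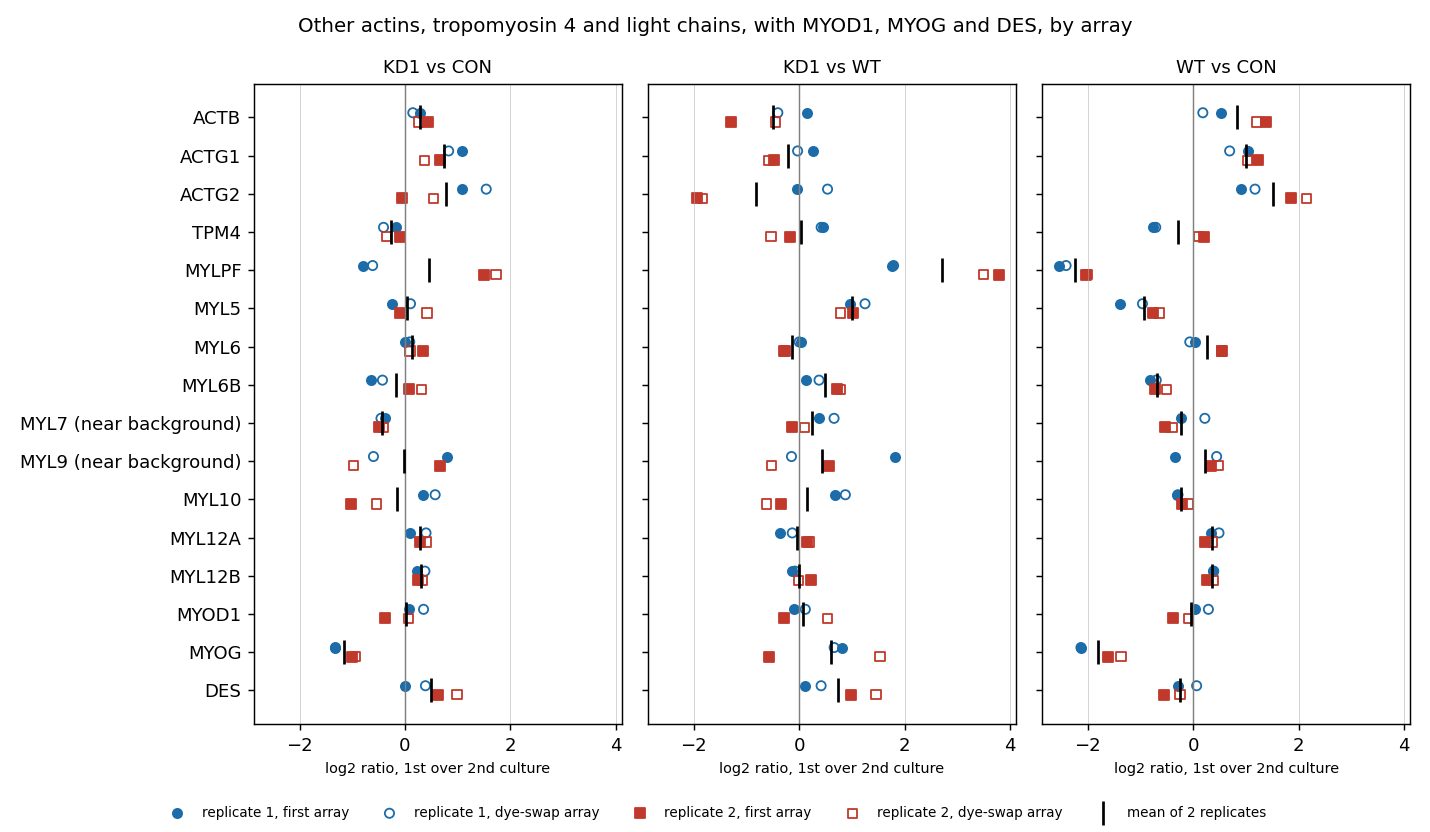
The log2 ratio of the brightest probe of the 13 related actins, tropomyosin 4 and light chains and of 3 skeletal muscle markers (rows) is plotted for every array of the 3 comparisons, with symbols as in the plot of the brightest probes. MYLPF and MYOG lie below 0 on all 4 arrays of WT vs CON, and ACTB, ACTG1 and ACTG2 lie above 0 there.

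Genes with the most similar pattern were sought for the brightest member of each class as the smallest Euclidean distance over the 6 replicate log2 ratios, among 15705 genes. Nearest to MYL4 were the unnamed probe A_32_P6045, C13orf18 and CSMD1, at distances of 0.70 to 0.95 against a median of 3.47. Nearest to ACTC1 were MTERFD3, NUDCD2 and SNRNP35 (0.16 to 0.24, median 1.65), and nearest to TPM2 were YWHAE, FGD6 and THOC6 (0.14 to 0.17, median 1.28). The nearest genes of ACTC1 and TPM2 had small ratios in all comparisons, as those members had.

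Promoter sequence was given by RefSeq on GRCh38.p14 for 8 of the 10 genes, in 15 windows from 250 bases before to 50 after a start site. MYL2 and MYL4 were the others. A CArG box, the site of SRF, was found in 2 of the 15 windows, of ACTA1 and ACTC1, and in 1.29% of all 35116 windows. An E-box (CANNTG), the site of MYOD1 and MYOG, was found in 8 of 15 windows against 68.7% of all, a MEF2 site in 1 (MYL1) against 2.99%, TATAAA in 3 against 11.5% and ATTA in 3 against 50.2%. Both strands were searched, and no E-box or MEF2 match overlapped another motif. The MEF2 site lies in a MYL1 window at chr2:210303566-210303865, which is not printed. For the called gene MYL1 and both striated muscle actins, 1 window each is printed for the 250 bases before the start, with CArG boxes and E-boxes in capitals. MYL1 is at chr2:210315175-210315424, ACTA1 at chr1:229434095-229434344 and ACTC1 at chr15:34795550-34795799, all on the reverse strand.
MYL1: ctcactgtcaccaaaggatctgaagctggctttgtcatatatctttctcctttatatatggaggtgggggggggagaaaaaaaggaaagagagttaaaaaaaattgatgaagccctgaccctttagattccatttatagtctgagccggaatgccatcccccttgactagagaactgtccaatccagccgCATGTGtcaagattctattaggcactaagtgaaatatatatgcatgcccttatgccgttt
ACTA1: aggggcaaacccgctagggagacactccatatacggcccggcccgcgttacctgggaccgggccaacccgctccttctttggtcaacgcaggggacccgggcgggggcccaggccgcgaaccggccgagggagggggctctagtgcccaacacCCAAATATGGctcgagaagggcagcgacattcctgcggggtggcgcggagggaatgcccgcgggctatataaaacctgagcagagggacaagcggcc
ACTC1: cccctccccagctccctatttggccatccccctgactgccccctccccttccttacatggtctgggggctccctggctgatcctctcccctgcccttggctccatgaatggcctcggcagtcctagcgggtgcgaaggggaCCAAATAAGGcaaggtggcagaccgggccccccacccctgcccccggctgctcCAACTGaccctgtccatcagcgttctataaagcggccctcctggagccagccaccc

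In the ACTA1 window the CArG box lies 97 to 88 bases before the start, and in ACTC1 109 to 100 bases before it, with the E-box 56 to 51 bases before the start. The printed MYL1 window holds an E-box 60 to 55 bases before the start and no CArG box. The files do not measure binding at these sites, and the motifs were not related to the expression values.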

How the data were processed

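RNA of WT, CON and KD1 Rh30 cells was hybridized on 12 two-color arrays. Per the submitters' processing notes the arrays were read with Agilent Feature Extraction 10.5.1.1. The authors deposited linear intensity values per spot, background-subtracted, detrended and lowess-normalized within the array, with surrogates for spots near background, which compresses low ratios. They also deposited a log10 ratio per spot, and a table of the series in which the authors placed that ratio on a log2 scale. The other deposited columns used were spot annotations and flags. Log2 ratios were computed from the processed signals after dropping 95 to 188 spots per array flagged as outliers, and the mean was taken over spots and dye-swap pairs. Samples were grouped by the labels. The sequence of 1 probe is not reported here.

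Tests used limma 3.58.1 in R 4.3.3 (lmFit, eBayes) fitted to 6 replicate values. Since each replicate has 3 extracts for its 3 comparisons, residual degrees of freedom were set by hand at 2 in place of the fitted 3, with Benjamini-Hochberg adjustment over all probes tested (21937 for KD1 vs CON, 24884 for KD1 vs WT, 26595 for WT vs CON). The fit was tested on simulated data, where sizes were recovered without bias but many of the true changes were not called. The labels call the replicates biological, and KD1 and CON were 1 clone each. Each replicate had its own slide for the KD1 arrays, so the replicate values are also within-slide values, and all WT vs CON arrays shared 1 slide. Over 21870 probes, which are not independent, the 2 replicates correlated at 0.697 (KD1 vs CON), 0.370 (KD1 vs WT) and 0.460 (WT vs CON). Intervals are 95%. Precision is limited by the small number of arrays. The brightest probe stood for its gene. Named were all 10 members, 8 relatives fixed by name, related genes called with the brightest probe, PAX3, FOXO1, MYOD1, MYOG and DES. LMOD3 and the other named markers (MYF5, MYF6, MYH6, MYH11, NPPB and LUM) were chosen after their values were seen. Members and lists were chosen with earlier results of these data known. Alternatives were normexp background correction (offset 50) and loess, median centring, the series table, separate channels, extract values with the replicate block, 3 residual degrees of freedom, other signal filters and each replicate left out. The tables were made with Python, numpy and pandas, the plots with matplotlib.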

Additional observations from a re-analysis of the deposited data

Results flagged for a closer look

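In 4 of the 23 member probes tested in both KD1 comparisons, beside 1.93% of all probes tested in both, KD1 vs CON and KD1 vs WT lay on opposite sides of 0 on all 4 arrays of each comparison, the first below and the second above. The means of these contrasts, in that order, were −0.52 and 0.74 for ACTA1, −0.56 and 0.17 for the second ACTC1 probe, −0.59 and 0.91 for the MYL4 probe A_24_P151032, and −0.64 and 1.27 for the MYL4 probe A_24_P188218. The difference of the 2 contrasts corresponds to WT vs CON, which was called by limma for both MYL4 probes (adjusted p = 0.0308 and 0.0139) and not for ACTA1 (0.0618) or the second ACTC1 probe (0.157). Both contrasts use the same KD1 extracts. MYL2, near background, had the same signs on all 8 arrays and was not tested.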

How the results depend on the processing

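With 2 replicates of 1 clone each, small differences could not be resolved, and near-background probes carry little information. The number of called member probes in KD1 vs CON was 0 in all 10 alternatives. In KD1 vs WT, where 1 was called, 0 were called with normexp and loess, with median centring, with separate channels and no replicate block, with the replicate block, with 3 residual degrees of freedom and with no signal filter, and between 2 and 6 were called when 1 replicate was left out. Calls over all probes of KD1 vs WT, 261 of 24884 in the main fit, also rose when either replicate was left out. The rise was thus not limited to the member probes, and each ratio there rests on 1 value. In WT vs CON, where 3 were called, 0 were called with normexp and loess and with separate channels and no replicate block. The replicate block gave 1 and no signal filter gave 1. Of all probes, 365 of 26595 were called in the main fit of WT vs CON. That number was 2 with normexp and loess, 114 with separate channels, 131 with the replicate block and 200 of 40998 with no signal filter. Why these counts moved was not tested. With the replicate block, fitted on extract values that pair the cultures of a replicate, the call that stayed was MYL4 (A_24_P188218, −1.90). The numbers do not name a shared batch beyond the slide.

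Of 290 single values checked, 258 kept direction and side of the threshold, 19 lost a call, 4 gained one and 9 changed sign, none of the latter called under the alternative that turned it. With either replicate left out, the KD1 vs CON values ran from −0.84 to 0.82 for MYL1 and from −0.46 to 0.26 for MYL3. The KD1 vs WT values ran from −0.0119 to 1.11 for ACTA2, from −0.0061 to 0.19 for ACTC1, from −0.28 to 0.0419 for TPM1 and from −0.34 to 0.14 for TPM2, which was 0.0845 with median centring. The WT vs CON values ran from −0.13 to 0.83 for ACTA2 and from −0.14 to 0.41 for TPM3. Of these, ACTA2 in KD1 vs WT was called without replicate 1, where it rests on 1 value.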
